A study of Rattus norvegicus with 6 samples.

Results

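Aminoacyl-tRNA synthetases, the enzymes that attach each amino acid to its transfer RNA, were followed in rat liver after a short period on little dietary protein. Members were all probe sets that the array annotation gives exactly 1 gene symbol and whose symbol names a synthetase or a scaffold protein of the synthetase complex. They came to 54 of 31042 probe sets and 35 of 14217 named genes, namely 19 cytosolic enzymes, 13 mitochondrial enzymes (the symbols ending in 2) and 3 scaffold proteins. Lars2, Mars2 and Pars2 were among those not analysed here.

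The livers came from male Wistar rats, 6 weeks old and about 150 g on arrival, housed singly and without any genetic alteration named in the labels. All rats had 4 days on pellets and 4 days of training on the control diet, offered for part of each day. The control group (15P) then ate the control diet for 8 hours and the low-protein group (5P) ate a diet of equal energy and less protein for the same 8 hours, and all livers were taken after 16 hours without food. Each diet was measured on 3 Affymetrix expression arrays, and whether those are 3 animals is not spelled out in the labels; the p-values therefore rest on the spread among the arrays, which may be technical. Whole liver was used, in which fewer cells of a type and less RNA per cell cannot be told apart.

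The values are log2 intensities, and a difference is given as a log2 fold change, low protein minus control. A gene was said to have passed when limma's moderated test gave a Benjamini-Hochberg adjusted p under 0.05 over all 14217 genes, as 26 genes (0.183%) did. The hepatocyte gene Alb read 14.38 to 14.40 on all 6 arrays, at the top of the intensity range. Of the 5 hepatocyte markers, Alb among them, 4 were lower and 0 passed, with a median of -0.19. On the first principal component, with 36.9% of the variance, control replicate 3 lay at -10.11 and the other controls at -26.91 and -22.45. Array medians ran from 33.34 to 34.32 on the linear scale.

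A synthetase activates its amino acid with ATP and loads it onto the matching transfer RNA, which then feeds the ribosome. Mammalian cells keep a cytosolic set and a second, nuclear-encoded set that is imported into mitochondria, where a small group of respiratory chain proteins is made; Gars1 and Kars1 each serve both places from a single gene. Several cytosolic enzymes are held in a multi-synthetase complex by Aimp1, Aimp2 and Eef1e1. When an amino acid runs short, uncharged transfer RNA activates the kinase GCN2, and the transcription factor ATF4 then acts through amino acid response elements, with many cytosolic synthetase genes among its known targets.

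No synthetase or scaffold gene passed the test, in either direction. The medians of the cytosolic and mitochondrial sets lay on opposite sides of 0. Low-protein livers were higher for 15 of 19 cytosolic genes, whose log2 fold changes ran from -0.17 to 0.65 around a median of 0.19. They were lower for 9 of 13 mitochondrial genes, with a median of -0.19 and a range from -0.33 to 0.24, while over all genes the median was 0.03 and 57.6% were higher. The highest cytosolic values were those of Gars1, Sars1, Yars1 and Cars1, which load glycine, serine, tyrosine and cysteine, and the lowest mitochondrial values were those of Hars2 and Fars2, which load histidine and phenylalanine. Without low-protein replicate 2 the cytosolic median was 0.09. The mitochondrial median moved to -0.10 when control replicate 1 was left out, to -0.11 for control replicate 3 and to -0.08 for low-protein replicate 3.

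**Figure D1:**
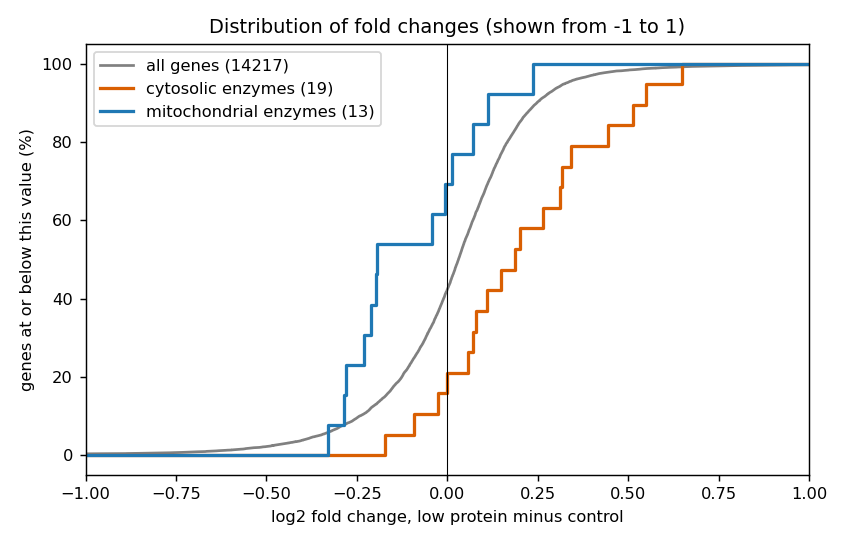
Cumulative share of genes (vertical axis, percent) at or below each log2 fold change, low protein minus control (horizontal axis, shown from -1 to 1), for all 14217 genes, 19 cytosolic and 13 mitochondrial enzymes. Over most of the range the cytosolic curve lies to the right of the curve of all genes (median 0.19 against 0.03). The mitochondrial curve lies to its left over most of the range (median -0.19).

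The sequences at the gene starts were read next, for motifs of regulators known to act on these genes. RefSeq promoter windows of assembly GRCr8, from 250 bases before to 50 bases after the annotated start, were matched by gene ID for 33 of the 35 genes (not for Rars1 and Gars1). The core of the amino acid response element, TGATGNAA on either strand, was found in 7 of 17 cytosolic windows (41.2%), 0 of 13 mitochondrial windows and 0 of 3 scaffold windows. Of all 33469 RefSeq windows 3.98% held it, and over the 13192 windows of genes on these arrays 2.22% did. Among the 7 were Cars1, Iars1, Mars1, Nars1, Tars1 and Yars1. The stretches of 30 bases below are shown because they carry that match, in capitals and read 5′ to 3′ on the strand of the gene:
Cars1, chr1:208225334-208225363, minus strand: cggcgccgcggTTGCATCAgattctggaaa
Iars1, chr17:15193658-15193687, minus strand: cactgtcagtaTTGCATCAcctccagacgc
Mars1, chr7:65023752-65023781, minus strand: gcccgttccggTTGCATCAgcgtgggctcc
Tars1, chr2:62114811-62114840, minus strand: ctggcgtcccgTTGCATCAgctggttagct
Yars1, chr5:146820183-146820212, plus strand: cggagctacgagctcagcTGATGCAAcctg

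In Cars1, Iars1, Mars1 and Tars1 the same 8 letters, TTGCATCA, appeared on the gene's strand, and Yars1 held their reverse complement. Counted from the start, the first base of the match lay at -27 in Tars1, -24 in Iars1, -17 in Mars1 and -14 in Nars1. It lay downstream at 18 in Cars1 and 39 in Yars1. A match is a run of letters and not a measured binding site.

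The core of the NRF-1 site, GCGCANGC on either strand, was also searched, since NRF-1 is a known regulator of nuclear genes for mitochondria. It was found in 4 of 13 mitochondrial windows (30.8%) and 5 of 17 cytosolic windows (29.4%), against 8.98% of all windows and 15.9% of those of genes on the arrays. None of these matches overlapped a match to the other motif. The mitochondrial genes were Iars2, Rars2, Vars2 and Wars2, of which Vars2 held 2 matches and Wars2 held 2 that overlap each other on opposite strands. One match each is shown for the 3 whose match lies wholly upstream of the start:
Rars2, chr5:53977801-53977830, plus strand: cggccccgtgtGCCTGCGCactatacactt
Vars2, chr20:3081837-3081866, plus strand: gagagtcttctGCGCATGCgtagccccgcc
Wars2, chr2:189150286-189150315, plus strand: ccagaagacaaGCGCATGCgcagtaagcac

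**Figure D2:**
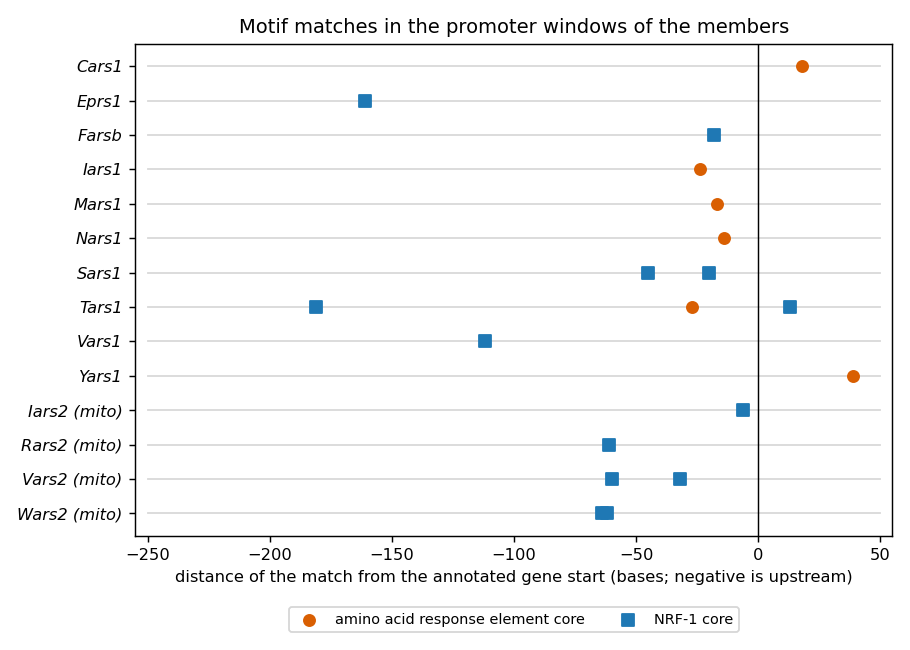
Position of each motif match (horizontal axis, bases from the annotated gene start, negative upstream) in the windows of 14 member genes that hold a match; circles mark the amino acid response element core and squares the NRF-1 core. Circles appear for 6 cytosolic genes and for no mitochondrial gene, and squares appear for both sets.

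Cytosolic enzymes for glycine, serine, tyrosine and cysteine were the members with the smallest p, and in each of these 4 genes the lowest low-protein array read above the highest control array. Gars1 (gene ID 297113), the glycyl-tRNA synthetase of both cytosol and mitochondria, read 9.26, 9.45 and 9.34 on control replicates 1 to 3 and 9.92, 10.38 and 9.71 on low-protein replicates 1 to 3. All low-protein arrays were above the controls, with replicate 2 farthest. The difference of 0.65 (SE 0.164) equals 1.57-fold, with an adjusted p = 0.138 by limma.

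Sars1 (gene ID 266975), the seryl-tRNA synthetase, read 7.80, 8.24 and 8.04 on the controls and 8.41, 8.71 and 8.62 on the low-protein arrays. The difference was 0.55 (SE 0.134, adjusted p = 0.131 by limma), and the lowest low-protein array stood only a little above control replicate 2. Yars1 (gene ID 313047), the tyrosyl-tRNA synthetase, had the smallest p of all members. It read 8.04, 8.04 and 8.09 on the controls, which lay close together, and 8.54, 8.78 and 8.38 on the low-protein arrays. The difference of 0.51 (SE 0.112) equals 1.43-fold, with an adjusted p = 0.103 by limma.

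Cars1 (gene ID 293638), the cysteinyl-tRNA synthetase, read 7.65, 7.76 and 7.84 on the controls and 8.21, 8.34 and 8.04 on the low-protein arrays. The diets again did not overlap and differed by 0.44 (SE 0.106, adjusted p = 0.126 by limma). Over 17 other settings of the analysis the adjusted p ran from 0.0771 to 0.247 for Yars1, from 0.0914 to 0.289 for Cars1, from 0.0986 to 0.28 for Sars1 and from 0.109 to 0.297 for Gars1, so that none of the 4 passed under any of them.

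Vars1, Farsb and Iars1 formed the next step down, with low-protein arrays that were mostly but not wholly above the controls. Vars1, the valyl enzyme, read 5.58, 5.72 and 5.47 on the controls and 5.71, 6.19 and 5.89 on the low-protein arrays (0.34, SE 0.134). Farsb, the beta subunit of the phenylalanyl enzyme, read 7.88, 7.92 and 8.16 against 8.15, 8.56 and 8.20 (0.32, SE 0.134). In both, a single control array reached into the low-protein range. Iars1, the isoleucyl enzyme, read 8.07, 8.26 and 8.37 on the controls against 8.55, 8.83 and 8.26 (0.31, SE 0.152), and low-protein replicate 3 lay among the controls. Without low-protein replicate 2, Vars1, Farsb and Iars1 were at 0.21, 0.19 and 0.17. Farsa, the alpha subunit that pairs with Farsb in the enzyme, had a log2 fold change of 0.08 (SE 0.102).

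Lars1, Rars1, Mars1 and Kars1 load leucine, arginine, methionine and lysine within the complex. Lars1 read 8.67, 8.65 and 8.66 on the controls and 8.79, 9.27 and 8.71 on the low-protein arrays, a log2 fold change of 0.26 (SE 0.146). Its diets did not overlap, but the distance rested mainly on replicate 2, and without that array the value was 0.09. Rars1 read 8.37, 8.38 and 8.61 against 8.52, 8.90 and 8.53, and Mars1 read 8.97, 9.13 and 9.03 against 9.17, 9.47 and 9.05. Kars1 read 9.12, 8.88 and 8.99 against 8.92, 9.27 and 9.25. In these last 3 genes the diets overlapped and differed by 0.20, 0.19 and 0.15 (SE 0.129, 0.121 and 0.120). Low-protein replicate 2 weighed on them too, since without it the values were 0.08, 0.07 and 0.09. For Kars1 low-protein replicate 3 weighed about as much, with 0.10 when it was left out.

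Hars1, the histidyl enzyme, was the cytosolic gene farthest below 0. It read 7.554, 7.739 and 7.684 on the controls and 7.504, 7.422 and 7.533 on the low-protein arrays, with no overlap and a difference of -0.17 (SE 0.088, adjusted p = 0.377 by limma). The remaining cytosolic genes, which load tryptophan, threonine, phenylalanine, alanine, asparagine, glutamine, and glutamate with proline, lay from -0.09 to 0.11. They were Wars1 at 0.11, Farsa at 0.08, Aars1 at 0.07, Nars1 at 0.06, Eprs1 at -0.0018, Qars1 at -0.03 and Tars1 at -0.09. The intervals around these values are wide beside the values themselves, such as -0.42 to 0.42 (95%) for Eprs1 and -0.16 to 0.30 for Aars1. Qars1 and Eprs1 turned above 0 with 75th-percentile centring (0.02 and 0.05) and with quantile normalization (0.0085 and 0.013).

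**Figure D3:**
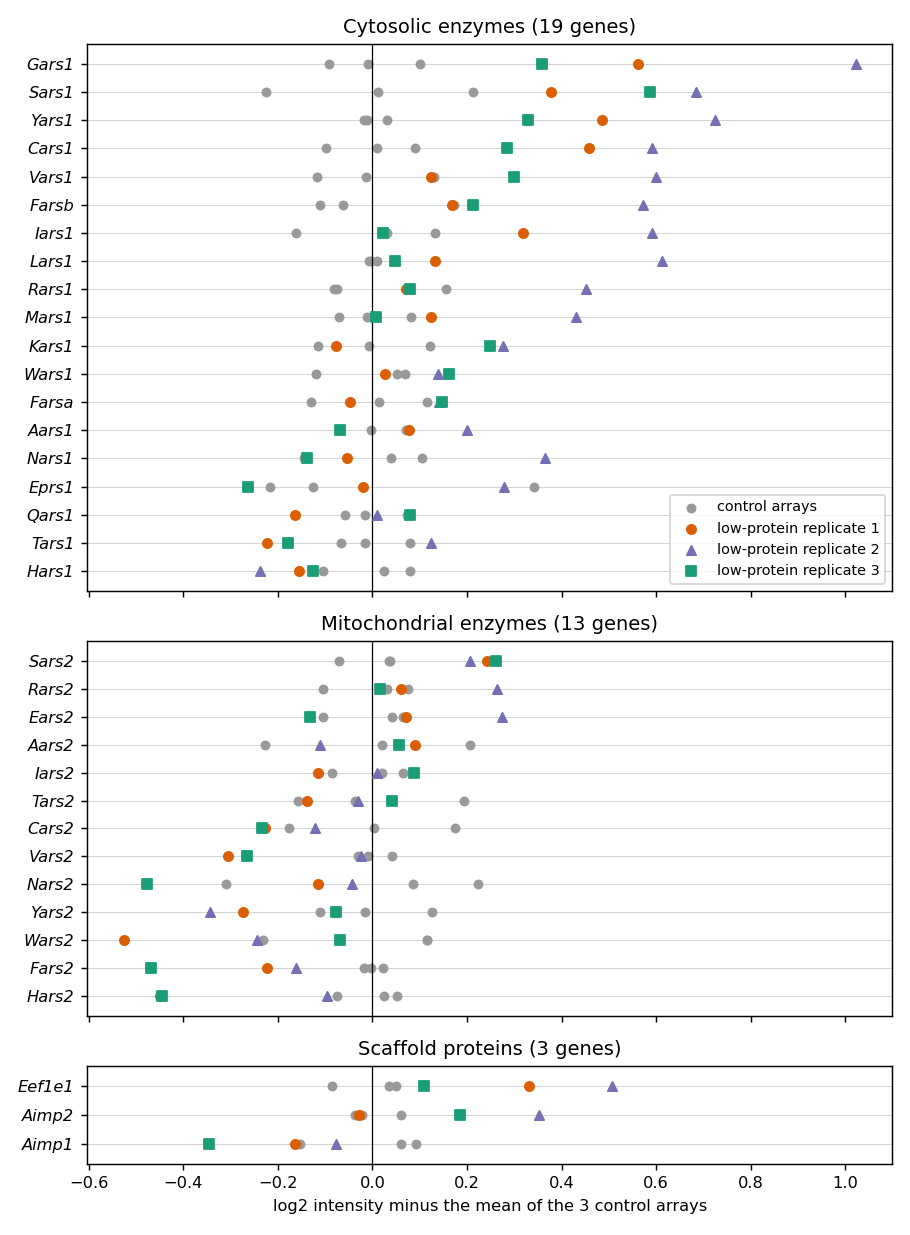
Log2 intensity of each member gene on each array minus its mean over the 3 control arrays (horizontal axis), one line per gene, for cytosolic enzymes, mitochondrial enzymes and scaffold proteins. Grey circles are the 3 control arrays, and the orange circle, purple triangle and green square are low-protein replicates 1, 2 and 3. Gars1, Sars1, Yars1 and Cars1 have all low-protein arrays to the right of all controls, and Hars2, Fars2 and Hars1 have them all to the left.

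Among cytosolic genes 5 of 19 had low-protein arrays wholly above the controls (Gars1, Sars1, Yars1, Cars1 and Lars1), where 12.8% of all genes did. One gene, Hars1, had them wholly below, where 10.1% of all genes did. An unadjusted p under 0.05 was reached upward by 6 of the 19 (the first 4 of these with Vars1 and Farsb), against 8.34% of all genes, and downward by 0, against 7.98%. These counts describe the members and carry no test of the group.

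The cytosolic enzymes were next grouped by what they do. Of 7 measured enzymes of the multi-synthetase complex (Iars1, Lars1, Rars1, Mars1, Kars1, Qars1 and Eprs1) 0 reached an unadjusted p under 0.05. Outside it 6 of 12 did, all upward. Over all genes 8.34% did so upward and 7.98% downward, so 0 of 7 is near that share. The medians inside and outside the complex were close (0.19 and 0.21). The 9 class I enzymes, which share a Rossmann-fold catalytic domain, had a median of 0.26, and the 9 class II enzymes had a median of 0.08; Eprs1, which joins an enzyme of each class, was left out of both. Enzymes for essential amino acids had a median of 0.17 (10 genes) and those for other amino acids 0.20 (9 genes). The 4 enzymes with the smallest p all load amino acids that the body can make, with tyrosine made from phenylalanine and cysteine with sulfur from methionine. Rars1, Aars1, Nars1, Eprs1 and Qars1, in the same group, lay from -0.03 to 0.20. Vars1 and Farsb, the next cytosolic genes by p, load essential amino acids.

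A list of 12 cytosolic synthetases commonly described as ATF4 targets had a median of 0.23, and 10 were higher; the other 7 had a median of 0.15, and 5 were higher. The 5 genes whose arrays did not overlap upward were all on that list (5 of 12 there, and 0 of the other 7). Over all genes 12.8% did not overlap upward, so 0 of 7 is near that share. All 7 genes with the response element core shown above were on the list as well, but the list is not independent of such elements. With the core the median was 0.19 (range -0.09 to 0.51, 7 genes) and without it 0.13 (-0.17 to 0.55, 10 genes). Yars1 and Cars1 held the core and Sars1 did not. Nars1 and Tars1 held it and lay at 0.06 and -0.09, so genes with the core spanned most of the cytosolic range. None of these splits was tested.

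Mitochondrial enzymes pointed mostly downward, with small differences. Hars2 (gene ID 307491), the mitochondrial histidyl enzyme, read 7.12, 7.22 and 7.25 on the controls and 6.75, 7.10 and 6.76 on the low-protein arrays. Replicate 2 lay just below the lowest control and the other low-protein arrays well below it, a difference of -0.33 (SE 0.115, adjusted p = 0.222 by limma). Fars2 (gene ID 306879), which loads phenylalanine, read 6.89, 6.86 and 6.85 on the controls and 6.64, 6.71 and 6.40 on the low-protein arrays. The controls were tight and no array overlapped (-0.28, SE 0.101, adjusted p = 0.227 by limma).

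Sars2 (gene ID 292759), the mitochondrial seryl enzyme, went the other way and had the smallest p of the mitochondrial genes. It read 5.91, 6.02 and 6.02 on the controls and 6.23, 6.19 and 6.25 on the low-protein arrays, wholly above them, a difference of 0.24 (SE 0.081, adjusted p = 0.211 by limma). Serine was the only amino acid, among the pairs measured, for which neither enzyme overlapped between diets and both were higher.

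Yars2, Vars2 and Wars2, for tyrosine, valine and tryptophan, were lower with overlapping arrays. Yars2 read 7.36, 7.50 and 7.26 on the controls and 7.10, 7.03 and 7.29 on the low-protein arrays (-0.23, SE 0.106), and Vars2 read 5.731, 5.751 and 5.802 against 5.455, 5.738 and 5.497 (-0.20, SE 0.099). Wars2 read 6.13, 5.78 and 6.13 against 5.49, 5.77 and 5.95 (-0.28, SE 0.146). In Vars2 and Yars2 a single low-protein array lay within the control range, and in Wars2 the low value of control replicate 2 made the overlap.

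The other mitochondrial genes were Nars2 at -0.21, Cars2 at -0.19, Tars2 at -0.04, Iars2 at -0.0056, Aars2 at 0.012, Ears2 at 0.07 and Rars2 at 0.11. Nars2 was dim, at 4.03 ± 0.28 in controls and 3.81 ± 0.23 in low-protein livers (SD, n = 3 each). Tars2 and Iars2 turned above 0 with 75th-percentile centring (0.0063 and 0.04), and Aars2 turned below 0 with median centring (-0.015). Of the 13 genes, Sars2 alone had arrays wholly above the controls, and Hars2 and Fars2 had them wholly below, against 12.8% and 10.1% of all genes. An unadjusted p under 0.05 was reached by the same 3 genes, against 8.34% upward and 7.98% downward.

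All 6 mitochondrial enzymes for essential amino acids were lower (Hars2, Fars2, Vars2, Wars2, Tars2 and Iars2, median -0.24), with Tars2 and Iars2 close to 0 and above it with 75th-percentile centring. Of the 7 for other amino acids 4 were higher, with a median of 0.012. The 4 genes with the NRF-1 core had a median of -0.10 and the 9 without it -0.19. These splits were not tested either.

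For 14 pairs of enzymes that load the same amino acid, the cytosolic value was compared with the mitochondrial value within each array, so that anything shared by both cancels. The question was whether diet moved the pair apart. The difference was larger in low-protein livers for 12 pairs and smaller for 2, with a median of 0.31 (log2), and in 8 pairs the cytosolic gene was above 0 and the mitochondrial gene below. Phenylalanine gives 2 pairs, since Farsa and Farsb share Fars2.

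Yars1 minus Yars2 was 0.69, 0.54 and 0.82 on the controls and 1.44, 1.75 and 1.09 on the low-protein arrays, a shift of 0.74 (SE 0.209). Cars1 minus Cars2 was -0.10, 0.19 and -0.08 against 0.69, 0.71 and 0.52, a shift of 0.64 (SE 0.111). These differences between probe sets carry meaning only as a change between diets, and in both pairs every low-protein array stood clear of every control.

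Farsb against Fars2 shifted by 0.60 (SE 0.145), Vars1 against Vars2 by 0.54 (SE 0.104), Wars1 against Wars2 by 0.39 (SE 0.108) and Farsa against Fars2 by 0.36 (SE 0.153), also without overlap. Thus 6 of 14 pairs had low-protein arrays wholly above the controls and 0 had them wholly below. The shares for single genes were 12.8% and 10.1%, which is not a like measure. No share was computed for differences between other pairs of genes. The Farsa and Farsb pairs also share the values of Fars2. Each of the 6 gave p = 0.1 in an exact two-sided permutation test over the 6 arrays, the smallest p that 3 against 3 arrays allow, and 0.233 after adjustment over 14 pairs. An exact test of this size cannot reach 0.05 for a single pair. The size of a shift also depends on the probe set that stood for a gene. For Wars2 the one used had -0.28 and the other -0.02.

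The pairs for isoleucine, serine, asparagine, histidine, arginine and alanine shifted by 0.32, 0.31, 0.27, 0.16, 0.09 and 0.06, with overlap. Those for threonine and glutamate shifted by -0.05 and -0.07, and their exact two-sided permutation p was 0.8 and 0.9. For serine both genes had positive values (0.24 for Sars2 and 0.55 for Sars1), whereas for tyrosine the mitochondrial value was negative (-0.23). Without control replicate 1 the median over the pairs was 0.23, the lowest over the left-out arrays, and without control replicate 3 it was 0.37, the highest.

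**Figure D4:**
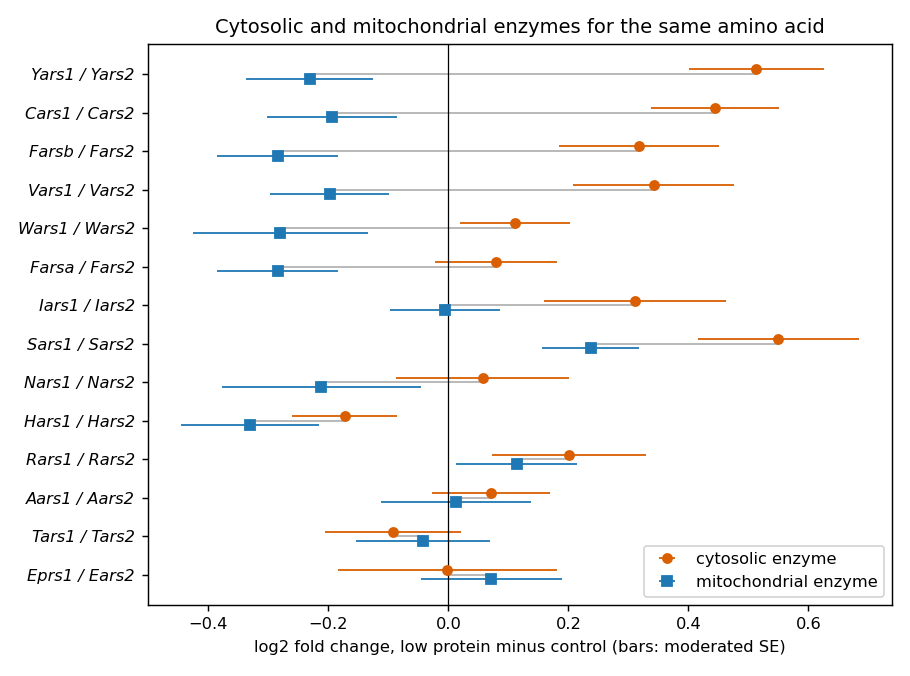
Log2 fold change, low protein minus control (horizontal axis), of the cytosolic enzyme (orange circles) and mitochondrial enzyme (blue squares) for the same amino acid, with moderated SE as bars, ordered by the distance between them. The cytosolic value lies to the right in 12 of 14 pairs, farthest for Yars1 and Yars2, and the bottom pairs, Tars1 with Tars2 and Eprs1 with Ears2, are in the opposite order.

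The scaffold proteins differed in direction. Eef1e1 (gene ID 291057), which links the complex to elongation factor 1, read 8.01, 8.13 and 8.15 on the controls and 8.43, 8.60 and 8.20 on the low-protein arrays, wholly above them (0.31, SE 0.115, adjusted p = 0.238 by limma). Aimp2, which ties the parts of the complex together, read 7.81, 7.80 and 7.89 against 7.80, 8.18 and 8.02, with overlap (0.17, SE 0.111, and 0.08 without low-protein replicate 2). Aimp1, which binds transfer RNA, read 8.06, 7.84 and 8.09 against 7.83, 7.92 and 7.65, with overlap and a negative value (-0.20, SE 0.109).

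The 3 low-protein arrays did not contribute alike. Low-protein replicate 2 was the highest of the 3 in 15 of 19 cytosolic genes (78.9%), 7 of 13 mitochondrial genes and 3 of 3 scaffold genes, where it was the highest in 31.4% of all genes. The mean of the cytosolic genes stood 0.115, 0.399 and 0.11 above the control mean on low-protein replicates 1, 2 and 3, and the controls themselves ran from -0.03 to 0.023. All 3 low-protein means were thus above all 3 control means, with replicate 2 far ahead. The mitochondrial mean stood at -0.147, -0.032 and -0.131, with controls from -0.041 to 0.038, so that replicate 2 lay within the control range.

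The same array was highest for the amino acid response list (26 measured genes), at 0.616, 0.955 and 0.589, and for the red blood cell markers (4 of 5 measured), at 0.19, 0.356 and 0.2 with controls from -0.034 to 0.042. Of those 4 markers 3 were higher, Hbb by 0.48 and Alas2 by 0.43, with Slc4a1 at 0.14 and Epb42 at -0.06. Their part in the cytosolic values was not tested. Replicate 2 was also the highest low-protein array for 3 lists described below. These were mitochondrial delivery and charging (0.09), transfer RNA export and editing (0.149) and selenocysteine genes (0.162). It was not the highest for the cytosolic elongation factor 1 genes or for the markers of the other cell types. Kupffer, endothelial, stellate, bile duct and lymphocyte markers had 0 genes past the test among 4, 5, 5, 4 and 4 measured, and on replicate 2 their means were 0.117, -0.176, 0.081, -0.358 and 0.012. On replicate 3 they were 0.396, 0.161, 0.221, -0.064 and 0.049, the first 3 above the cytosolic enzymes on that array (0.11). The Kupffer markers had a median of 0.20 between diets, close to that of the cytosolic enzymes, and their part was not tested. Of 5 hepatocyte markers 4 were lower and 0 passed, with a median of -0.19.

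**Figure D5:**
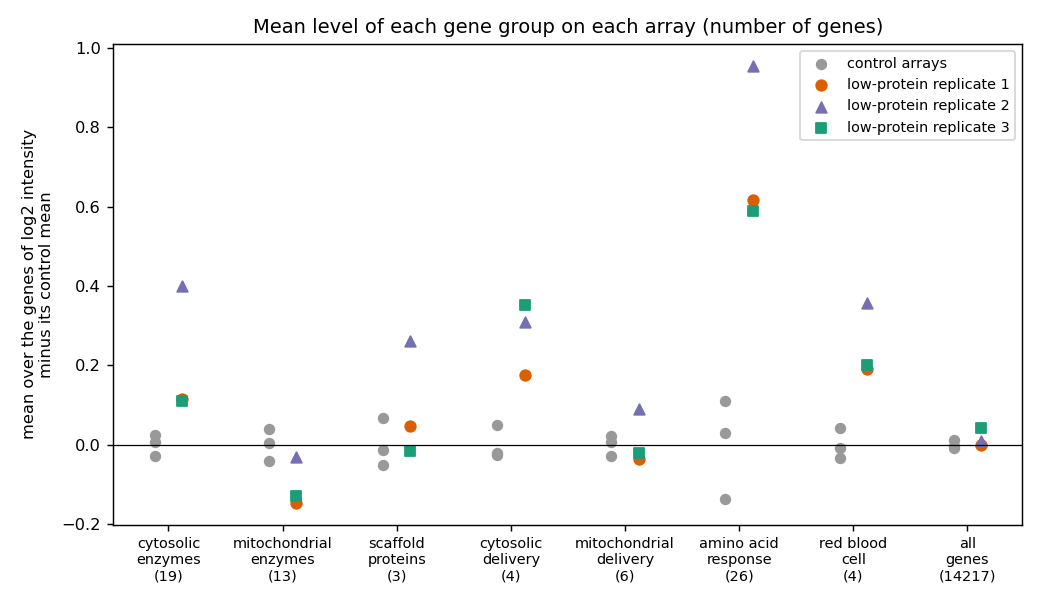
Mean over the genes of a group of log2 intensity minus its control mean (vertical axis) on each array, with the number of genes under each name. Grey circles are control arrays and coloured symbols the 3 low-protein replicates. For the cytosolic enzymes replicate 2 (0.399) lies far above replicates 1 and 3 (0.115 and 0.11). The mitochondrial enzymes lie below the controls on replicates 1 and 3 (-0.147 and -0.131) and within the control range on replicate 2 (-0.032).

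Of 15 member genes with several probe sets, 12 had all of them on the same side of 0. The 4 probe sets of Cars1 gave 0.44, 0.41, 0.18 and 0.04, and the 2 of Gars1 gave 0.65 and 0.53. The exceptions were Eprs1 (-0.60, -0.0018, 0.05 and 0.14), Kars1 (0.15 and -0.05) and Tars2 (-0.04 and 0.22). Hars2 agreed in sign but not in size, at -0.33 and -0.02, as did Wars2 at -0.28 and -0.02. None of the 54 probe sets passed over all 31042, where 0.132% did.

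Hars1 and Hars2 are adjacent protein-coding genes in GRCr8. Both were lower without overlap of the diets (-0.17 and -0.33), as were 10.1% of all genes, and neither passed. Their other probe sets, at -0.21 and -0.02, overlapped between diets. Iars2 and Eprs1 lie with 1 protein-coding gene between them, and their values were -0.0056 and -0.0018. The value of Eprs1 is uncertain, with an interval of -0.42 to 0.42 (95%) and probe sets from -0.60 to 0.14.

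Genes that handle transfer RNA next to the synthetases were counted from fixed lists. All 4 cytosolic elongation factor 1 genes were higher (median 0.24), though none passed; Eef1a1 carries charged transfer RNA to the ribosome, and Eef1b2, Eef1d and Eef1g belong to its nucleotide exchange complex. Eef1b2 read 11.10, 11.11 and 10.97 on the controls and 11.50, 11.55 and 11.71 on the low-protein arrays (0.53, SE 0.094, adjusted p = 0.0748 by limma), and Eef1d had 0.32 (SE 0.107). Here replicate 3 and not replicate 2 was highest for the group, at 0.353.

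The 6 genes listed for mitochondrial delivery and charging (Tufm, Tsfm, Mtfmt, Qrsl1, Gatb and Gatc) were split 3 and 3. Their median was 0.0037, with none past the test. Qrsl1, Gatb and Gatc belong to the transamidation route that makes mitochondrial glutaminyl-tRNA. Gatb had -0.18 and Tsfm 0.22. Among 6 measured genes of transfer RNA export and editing none passed. The deacylase gene Dtd1, which removes wrongly charged D-amino acids, had 0.57 (SE 0.159), and the export factor genes Xpot and Xpo5 had 0.03 and -0.17. Of 4 selenocysteine genes none passed, with Eefsec, the selenocysteine elongation factor, at 0.21 (SE 0.077).

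In the amino acid response list 4 of 26 genes passed upward, against 0.0633% of all genes, and 0 passed downward. The 2 of smallest p were Atf5, a transcription factor of the response, at 1.71 (SE 0.120), and Asns, the asparagine synthetase, at 3.36 (SE 0.365); Phgdh and Psat1, of serine synthesis, passed as well, at 3.07 and 2.67. Of the 26 genes 19 were higher and 7 were lower, with values from -0.72 to 3.36. The list's median was 0.40, against 0.19 for the cytosolic synthetases measured on the same arrays. The largest synthetase difference, Gars1 at 0.65, was under those of the 4 genes that passed.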

How the data were processed

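Intensity values for each probe set on each array were deposited by the authors, who used RMA per the submitters' processing notes, with no version stated there. RMA normalizes between arrays, so a change shared by most genes would be removed. The deposited intensities ran from 3.61 to 21668, so they were read as linear and log2 was taken. Of 31099 probe sets, 57 Affymetrix controls were left out, and no filter on low values was used.

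Probe sets were named from the platform annotation (20826 with 1 symbol, 436 with several, 9780 unnamed), checked against RefSeq of GRCr8, which changed 0 symbols; 2 synthetase probe sets with several gene IDs were left out. The probe set of highest mean over the 6 arrays stood for a gene. The named genes were all members, with values on each array for the 12 cytosolic and 6 mitochondrial genes of smallest p and the scaffold genes, and up to 2 genes of smallest p of each list. Others named beside these were chosen after their values were seen: Alb, Phgdh, Psat1, Xpot, Slc4a1 and Epb42.

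Diets were compared with lmFit and eBayes of limma 3.58.1 (R 4.3.3), two-sided, and p-values were adjusted by Benjamini-Hochberg over all genes, or over all probe sets. The fit was tested on simulated data. Pairs were tested by exact permutation (scipy 1.17.1). Arrays carry no read depth; 3 arrays a diet limit the precision. The members and lists were chosen with earlier results of these data known, so counts and medians over them carry no test. The motif match of 1 gene is counted but not reported here.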

Additional observations from a re-analysis of the deposited data

How the results depend on the processing

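The 17 settings were 2 other prior variances, 3 rescalings, 2 filters, array weights, the replicate block, 2 other choices of probe set and 6 left-out arrays. Under all of them 0 member genes passed over all genes (at an unadjusted p under 0.05, 8 were higher and 2 lower in limma as first fitted). The count over all genes was 26, with 42 by array weights and, leaving out single arrays, from 12 (control replicate 1) to 54 (control replicate 3), with 14, 20, 15 and 17 for control replicate 2 and low-protein replicates 1 to 3. With the replicate number as a block it was 14, still without a member; same-numbered arrays did not deviate together (correlations of -0.087, -0.027 and -0.10), so the numbers were not taken to pair samples. The cytosolic median ran from 0.09 to 0.26, the mitochondrial from -0.18 to -0.084 and the scaffold from 0.08 to 0.27 without single arrays; the mitochondrial median was -0.12 with the filter at the 50th percentile, which dropped Nars2, and leaving out Gars1 and Kars1 kept the cytosolic one at 0.19. The median over pairs, whose settings were chosen after seeing the data, ran from 0.23 to 0.37 without single arrays. Rescaling shifted the median of all genes to between 0.0034 and 0.08, and 15 to 17 cytosolic and 3 to 6 mitochondrial genes were then higher.

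In 28 of 35 genes the sign held in every setting run. Without single arrays the others ran from -0.10 to 0.12 (Aars2), -0.030 to 0.17 (Ears2), -0.14 to 0.17 (Eprs1), -0.053 to 0.049 (Iars2), -0.10 to 0.15 (Nars1), -0.078 to 0.044 (Qars1) and -0.12 to 0.055 (Tars2). With 75th-percentile centring Qars1, Eprs1, Tars2 and Iars2 were 0.024, 0.047, 0.0063 and 0.043. With quantile normalization Qars1, Eprs1, Tars2, Iars2 and Aars2 were 0.0085, 0.013, 0.001, 0.037 and -0.0001. Aars2 was -0.015 with median centring, and Tars2 was 0.087 with averaged probe sets and 0.22 with the probe set of largest SD. The cause was not tested. Arrays give no depth.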
